A study of Mus musculus with 8 samples.

Results

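The mitochondrial ribosomal protein (MRP) genes are the nuclear genes for the proteins of the ribosome inside mitochondria. They were taken as all table rows on primary chromosomes whose symbol is Mrps or Mrpl followed by a number and at most a letter from a to d. This gave 78 genes of 52778 listed features, 29 named for the small subunit (Mrps) and 49 for the large subunit (Mrpl). All 78 lay within the 15545 genes that had a level of at least 1 TPM, the share of all transcripts scaled for transcript length, in 4 or more of the 8 libraries, so none was lost to the filter on low values. Another 8 rows with the same symbols on alternative or patch sequences and 6 pseudogene rows were not counted as members.

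The libraries came from ventricular hearts of C57BL/6 mouse embryos at embryonic day 11.5. Of these, 4 were controls and 4 were homozygous for the allele Atf4(del7), from which CRISPR/Cas9 removed 7 bases in exon 3 of Atf4, shifting its reading frame in the whole animal. No embryo received a treatment, and every library carries batch label 1. ATF4 is a transcription factor of the integrated stress response, which impaired mitochondrial translation can set off, and the comparison between genotypes asks which heart transcripts depend on it.

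The mitoribosome translates the few mRNAs that mitochondrial DNA encodes, all of them for subunits of the respiratory chain and ATP synthase. Its small subunit binds the mRNA and decodes it, and its large subunit joins the amino acids and guides the new chain to the inner membrane. All its proteins are made in the cytosol and imported, so the subunits can be put together only if many nuclear genes are expressed alongside each other. Heart muscle depends on this machinery, and inherited defects in human MRPL3 and MRPL44 are known to cause cardiomyopathy.

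Promoter sequences were available for 69 of the 78 MRP genes as 75 windows, each running from 250 bases before to 50 bases after a transcription start (RefSeq, GRCm38.p6). The 4 windows below belong to the genes whose values or gene arrangement the results return to, and capitals mark the letters matched by a motif search. Mrps26 on chr2:130563507-130563806 (+ strand) holds 2 overlapping copies of the motif of NRF1, an activator of nuclear genes for mitochondrial proteins, and 1 ETS-family motif. Mrpl32 on chr13:14612988-14613287 (- strand) holds NRF1 letters that match on both strands and a further copy nearer the start. Mrpl17 on chr7:105811038-105811337 (- strand) holds 2 NRF1 motifs, and Mrps11 on chr7:78782881-78783180 (+ strand) holds 1 YY1 motif and is shared in part with the promoter of Mrpl46.
Mrps26: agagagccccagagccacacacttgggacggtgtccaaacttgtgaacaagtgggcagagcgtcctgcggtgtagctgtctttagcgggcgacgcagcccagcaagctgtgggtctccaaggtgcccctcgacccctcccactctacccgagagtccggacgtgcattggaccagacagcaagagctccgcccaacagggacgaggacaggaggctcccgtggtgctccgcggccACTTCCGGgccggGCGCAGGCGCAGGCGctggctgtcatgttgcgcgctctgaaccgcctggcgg
Mrpl32: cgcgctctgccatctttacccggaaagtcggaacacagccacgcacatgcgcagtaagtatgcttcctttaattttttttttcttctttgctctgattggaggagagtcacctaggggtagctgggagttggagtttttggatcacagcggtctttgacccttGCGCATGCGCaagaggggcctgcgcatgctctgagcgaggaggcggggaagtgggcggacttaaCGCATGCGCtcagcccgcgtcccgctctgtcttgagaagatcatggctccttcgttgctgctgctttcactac
Mrpl17: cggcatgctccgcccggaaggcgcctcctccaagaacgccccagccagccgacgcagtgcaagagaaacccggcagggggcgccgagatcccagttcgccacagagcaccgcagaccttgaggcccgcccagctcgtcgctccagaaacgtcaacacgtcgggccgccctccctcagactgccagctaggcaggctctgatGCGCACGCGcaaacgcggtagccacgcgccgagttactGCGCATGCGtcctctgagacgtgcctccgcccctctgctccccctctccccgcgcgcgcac
Mrps11: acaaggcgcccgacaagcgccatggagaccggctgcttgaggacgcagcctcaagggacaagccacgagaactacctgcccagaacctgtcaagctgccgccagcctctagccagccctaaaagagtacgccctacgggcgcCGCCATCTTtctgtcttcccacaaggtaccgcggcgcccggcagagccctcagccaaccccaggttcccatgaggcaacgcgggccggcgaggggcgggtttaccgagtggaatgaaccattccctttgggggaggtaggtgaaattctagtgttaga

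The search covered both strands for GCGCANGCG (NRF1), CCGGAAGT (ETS), AAGATGGCG (YY1), CACGTG (E-box) and TGATGNAA, the composite element bound by ATF4 with C/EBP factors. Shares were counted per gene, since windows of 1 gene can overlap. The NRF1 letters were in 23.2% of the 69 MRP genes, against 7.03% of all genes with RefSeq windows of that length and 17.2% of those within the MRP range of TPM. By subunit they were in 15.4% of 26 Mrps genes and 27.9% of 43 Mrpl genes. Only the Mrpl share was thus above that of the TPM range. The ETS letters were in 17.4%, against 4.31% and 10.8%. YY1 letters were in 11.6%, against 1.64% and 4.45%, and E-box letters were in 7.25%, against 8.09% and 12.5%. The ATF4 composite letters were in 0 of the 69 MRP genes, against 4.51% of all genes and 2.40% of those in the TPM range, which says only that these letters are not in these windows. In all, 36 MRP genes held at least 1 of the motifs, and the windows differed in base composition from the average promoter, with a median GC content of 58.7% against 52.7% over all windows and 61.7% in the TPM range.

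The NRF1 motif occurred in 16 MRP genes: Mrps9, Mrps18b, Mrps21, Mrps26, Mrpl9, Mrpl10, Mrpl12, Mrpl14, Mrpl17, Mrpl22, Mrpl30, Mrpl32, Mrpl39, Mrpl44, Mrpl45 and Mrpl57. The ETS motif occurred in 12, Mrps26 among them as the gene with both motifs. Genes with the NRF1 motif had a median log2 fold change between genotypes of 0.016, with a range from -0.11 (Mrpl17) to 0.12 (Mrpl39), and the 53 without it had a median of 0.0076. Genes with the ETS motif had a median of 0.016 and the 57 without it 0.0094. These medians are descriptions with no test.

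Before the MRP genes, the label check and the tissue check were made on the same libraries. Atf4 was at 105, 121, 115 and 105 TPM in the controls and at 166, 164, 185 and 148 TPM in the mutants, a log2 fold change of 0.57 ± 0.071 (SE, limma, adjusted p = 0.0430). The mutant libraries were all above the controls, and a gene-level value cannot show a deletion of a few bases. Atf4 was the 1 higher gene among 6 called; its call was lost in 12 of 16 alternatives, and after quantile normalization or rescaling the calls were 0 higher and 6 lower. The 8 markers listed for ventricular cardiomyocytes, not all of them particular to the ventricle, summed to between 32114 and 35226 TPM per library. The 4 atrial markers summed to 24.4 to 28.0 TPM in controls and 24.9 to 28.5 TPM in mutants. The 6 neuronal markers, checked because the sample protocol names cortical neurons, summed to at most 0.724 TPM, with Neurod6 listed at 0. Summed macrophage markers ran from 8.35 to 17.8 TPM in controls and from 4.75 to 9.38 TPM in mutants, and summed erythroid markers from 3967 to 6728 and from 3710 to 5216 TPM. No marker gene that was tested passed the threshold. All 4 tested macrophage markers had a log2 fold change below 0 (median -0.64). Of the 6 erythroid markers, 5 lay below 0 and 1 above (median -0.28). Over all genes tested, 48.2% lay above 0. No neuronal marker, 4 of the 6 macrophage markers and 3 of the 4 atrial markers were high enough to be tested, and the part of these cells in the MRP values was not tested.

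MRP transcripts were moderately abundant, and their levels lay closer together among small-subunit than among large-subunit genes. The median over the 78 genes was 60.0 TPM, 55.6 for the small and 60.8 for the large subunit, with quartiles at 42.9 and 71.9 TPM. Small-subunit genes covered a 6.88-fold range, from Mrps25 at 22.3 TPM to Mrps21 at 154 TPM. Large-subunit genes covered a 28.0-fold range, from Mrpl17 at 9.00 TPM to Mrpl42 at 252 TPM. TPM is scaled per transcript length, so these levels can be set side by side.

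The ends of this order were mostly large-subunit genes. Of the 10 genes above 100 TPM, 9 were Mrpl genes, and all 6 genes below 20 TPM were Mrpl genes (Mrpl17, Mrpl57, Mrpl48, Mrpl41, Mrpl1 and Mrpl35). Mrpl42, a protein found only in mitochondrial ribosomes, was at 251, 234, 264 and 245 TPM in controls and 260, 258, 251 and 257 TPM in mutants. Mrpl12, which forms the stalk that recruits translation factors, was at 266, 235, 233 and 244 TPM in controls and 263, 235, 240 and 247 TPM in mutants. These 2 genes overlapped over the libraries, so their order was not separated from the spread, and both lay above every value of Mrpl54, the third in order at 144 to 171 TPM. Mrps21, the homologue of a bacterial small-subunit protein, stood alone among the Mrps genes at 146 to 169 TPM, with Mrps36 (74.8 to 88.4 TPM) and Mrps15 (77.3 to 85.0 TPM) next and overlapping each other.

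**Figure D1:**
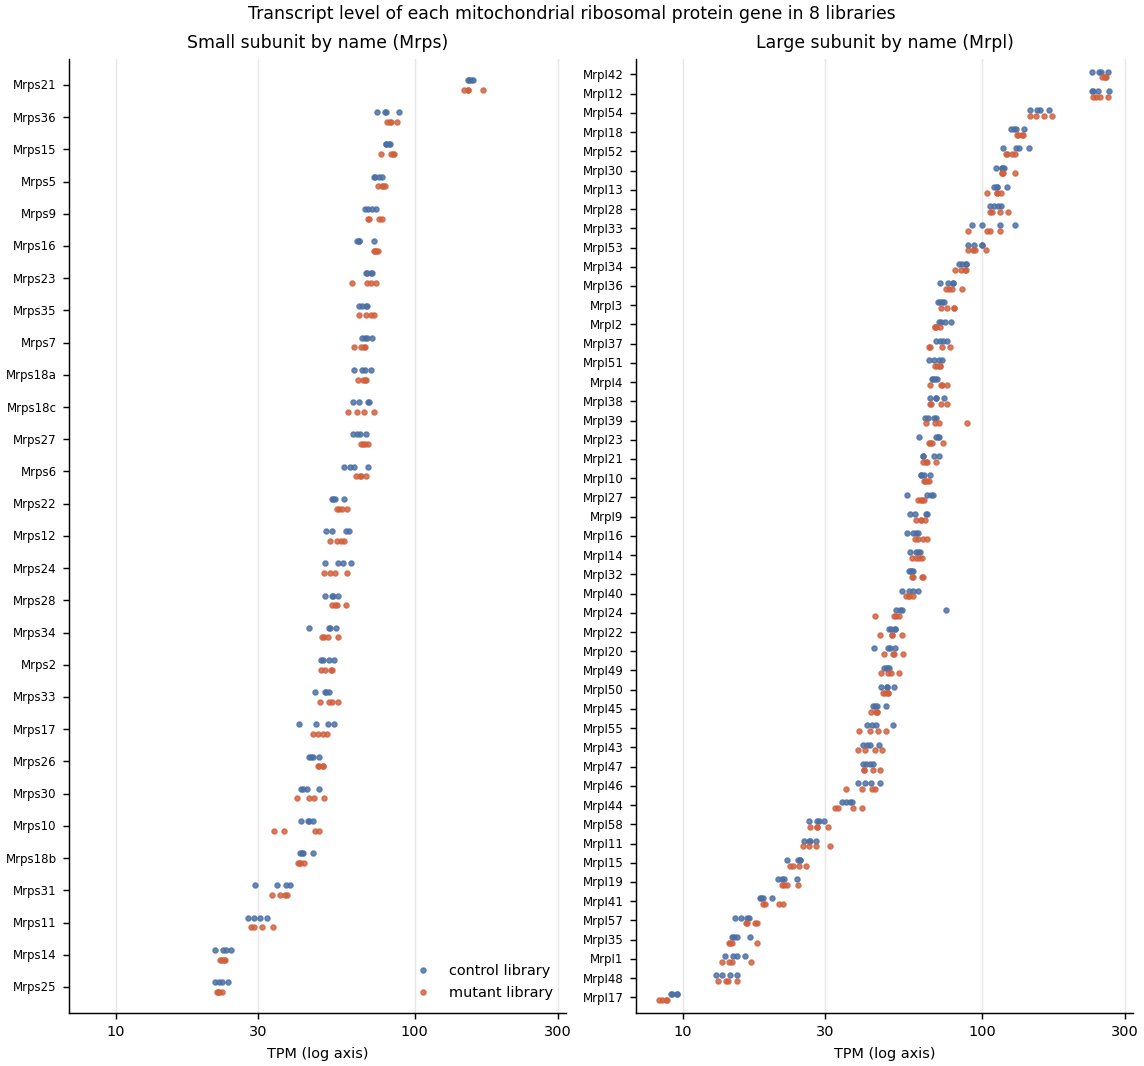
TPM of each of the 78 MRP genes on a log axis, Mrps genes on the left and Mrpl genes on the right, with a blue point per control library and an orange point per mutant library. The points of a gene lie close together beside the spread between genes, and the right panel reaches both the lowest level (Mrpl17, mean 9.00 TPM) and the highest (Mrpl42, mean 252 TPM).

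With Mrps30, Mrps18a and Mrps36 left out, genes were also grouped as listed bacterial homologues or listed mitochondrial proteins. The 16 small-subunit genes listed as bacterial homologues had a median of 60.0 TPM and the 10 listed as mitochondrial 50.9 TPM. The 28 large-subunit genes listed as bacterial homologues had a median of 64.1 TPM and the 21 listed as mitochondrial 48.0 TPM. The lists do not settle descent. Mrps18b was listed as mitochondrial, but Mrps18c, which shares its number, as a bacterial homologue. Mrpl58 was counted as mitochondrial. Each of these groups held genes on both sides of the others' medians. At the lower end, Mrps14, a homologue of a bacterial protein, was at 21.5 to 24.4 TPM, next to Mrps25 at 21.4 to 23.7 TPM, and these overlapped. Mrpl48 ran from 12.9 to 15.2 TPM, above every Mrpl17 value (8.32 to 9.59 TPM).

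Some MRP values may include reads of other genes, because 25 MRP genes overlap another feature and the strand setting of the counting is not given in the sources used here. In 14 of them the overlapping feature had more than 10% of the MRP gene's own TPM. The highest percentages were in Mrpl48, whose opposite-strand neighbour Rab6a was at 565% of its level, and Mrpl18, where Tcp1 was at 260%. Mrpl57 with Ska3 (126%), Mrps25 with Nr2c2 (97.9%) and Mrpl24 with Rrnad1 (29.3%) had the same arrangement. In the other 9 the largest overlapping feature ran from 22.3% of the MRP level (Mrpl2, with Klc4) to 64.8% (Mrpl14, with Tmem63b). They were Mrps7 (35.8%, with Gga3), Mrps23, Mrpl2, Mrpl14, Mrpl19, Mrpl27, Mrpl43, Mrpl44 and Mrpl49. These percentages compare whole-gene levels and do not measure how many reads could be misassigned, since only reads in the shared bases could be. The shared stretch ran from 18 bases (Mrpl2 with Klc4) to 3547 bases (Mrps25 with Nr2c2). It was 64 bases for Mrpl57 with Ska3 and 727 for Mrpl48 with Rab6a. The levels and fold changes of all 14 are uncertain by an amount that was not estimated. Genes here that the rule for named genes does not cover were named for this overlap after its values were seen. In 6 MRP genes a feature overlapped on the same strand, where a strand setting cannot part the reads. The handling of reads that match more than 1 place is not given either. Of the pseudogene rows, Mrpl48-ps averaged 7.15 TPM in controls and 7.29 TPM in mutants, beside 14.0 and 14.1 TPM for Mrpl48. Mrps36-ps3 was at 0.

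No MRP gene passed the threshold between genotypes. In limma with Benjamini-Hochberg adjustment over all 15545 genes, 0 of 78 were called, where 0.0386% of all genes were called (0.0064% as higher, 0.0322% as lower). The lowest adjusted p of any MRP gene was 0.780. At an unadjusted p below 0.05 there were 3 MRP genes (3.85%), 2 higher and 1 lower, where 6.10% of all genes lay below it (2.65% higher, 3.45% lower). The mutant libraries did not overlap the controls in 1 MRP gene (1.28%), which was lower, where 3.68% of all genes did not overlap (1.63% higher, 2.05% lower). With so few calls over all genes, a count of 0 in 78 is what the background share gives. The other shares were below the background in this fit and moved with the processing. They were 5 genes of 78 below the unadjusted p with median-of-ratios scaling, and 5 genes without overlap after rescaling without mitochondrially encoded and haemoglobin genes. Without control library 1, 8 MRP genes did not overlap, though fewer libraries overlap less by construction. The shares over all genes in these alternative fits are not given. These counts therefore cannot be set against 6.10% or 3.68%, which belong to the fit of all 8 libraries as deposited. In whole tissue, fewer cells of a type and less RNA per cell cannot be told apart, so equal values hold for the sum over cells.

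The fold changes were centred near 0. The median log2 fold change was 0.013 over all MRP genes, with the lowest at -0.22 (Mrpl24) and the highest at 0.15 (Mrps16), against a median of -0.0033 over all genes. The sign was positive for 48 genes and negative for 30, so 61.5% lay above 0, against 48.2% of all genes and 52.1% of the 9418 genes in the MRP range of TPM. MRP genes share libraries and move together within them, so this share is a description of these 8 libraries. It was not stable: from 39 (without control library 2) to 57 (without control library 1) MRP genes lay above 0 in the alternative fits.

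The intervals were narrow. For 74 of the 78 genes (94.9%) the unadjusted 95% interval of the fold change lay within 1.2-fold of no change in either direction, against 58.0% of all genes. For 31 genes it lay within 1.1-fold. All genes include many at lower levels, and the share of intervals in the MRP range of TPM is not given. The median SE was 0.051 for the MRP genes, 0.075 over all genes and 0.059 in that range. The 4 genes whose interval reached past 1.2-fold were Mrpl39, Mrps10, Mrpl24 and Mrpl33. On the log2 scale the residual SD had a median of 0.073, against 0.103 over all genes and 0.082 in the MRP range of TPM. Over the 8 libraries the coefficient of variation had a median of 5.03%, from 2.51% in Mrpl10, the anchor of the stalk, to 17.0% in Mrpl24.

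**Figure D2:**
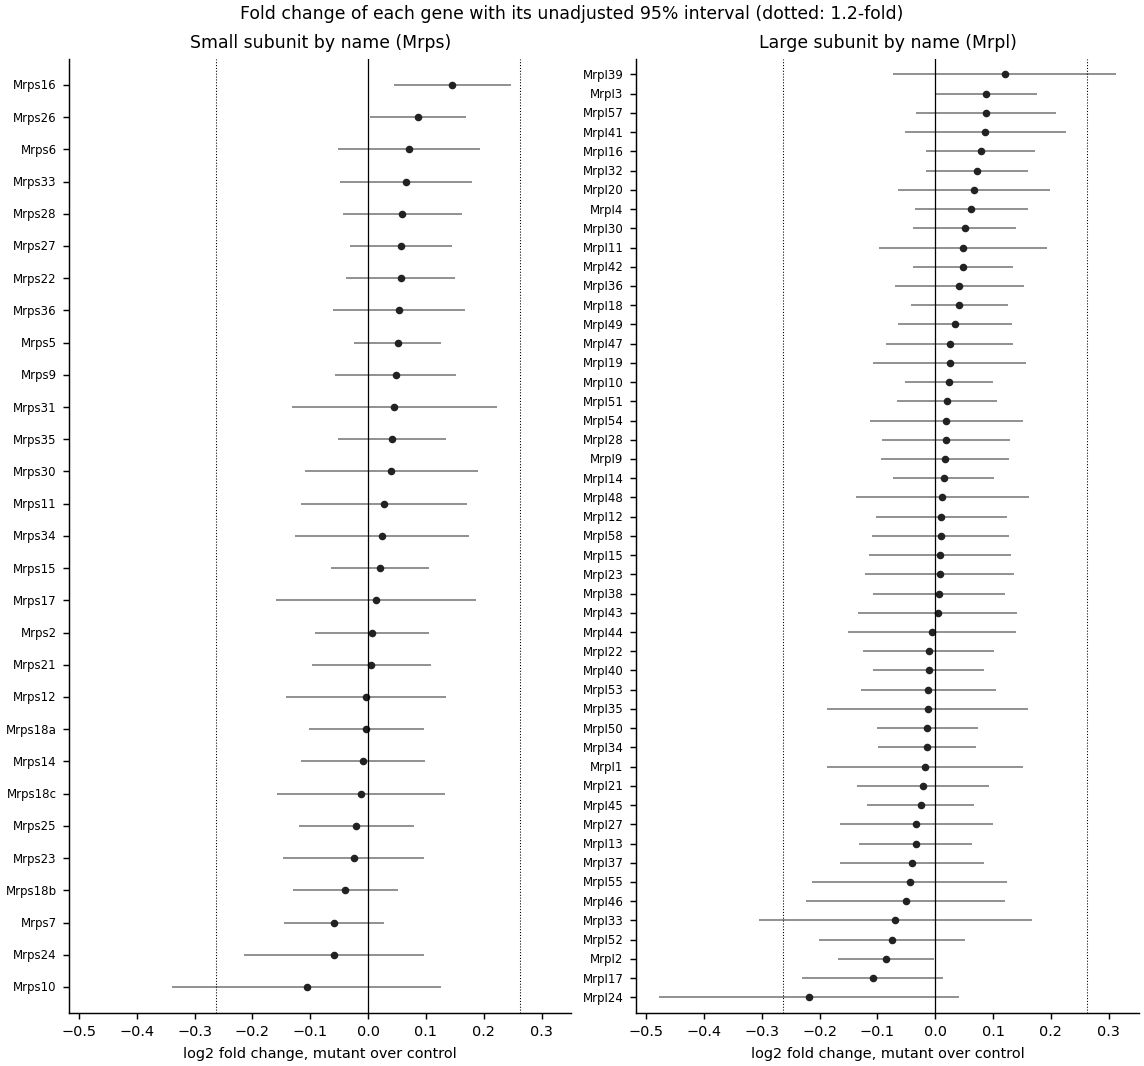
Log2 fold change (mutant over control) of each MRP gene from limma with its unadjusted 95% interval as a horizontal bar, Mrps genes on the left and Mrpl genes on the right, and dotted lines at 1.2-fold. All points lie between -0.22 and 0.15, and the bars of Mrpl39, Mrps10, Mrpl24 and Mrpl33 cross a dotted line.

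Among small-subunit genes, 19 lay above 0 and 10 below, with a median log2 fold change of 0.024 (0.013 to 0.034 with a library left out). Mrps16, the homologue of a bacterial protein needed to build the small subunit, had the smallest p of all MRP genes. It was at 73.4, 64.9, 65.2 and 64.3 TPM in controls and at 74.3, 72.9, 75.2 and 73.7 TPM in mutants. Control library 1 lay inside the mutant range and the other 3 controls lay below every mutant. Mrps16 thus averaged 66.9 ± 4.30 TPM against 74.0 ± 0.967 TPM (SD, n = 4 each). Its log2 fold change was 0.15 ± 0.045 (SE), with an adjusted p of 0.780 in limma. Without control library 1 its log2 fold change was 0.19 and its adjusted p 0.382, with a range of 0.382 to 0.946 over the 16 alternative fits.

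Mrps26, a protein found only in mitochondrial ribosomes, was at 48.0, 45.0, 45.6 and 44.5 TPM in controls and 49.4, 47.6, 49.4 and 48.0 TPM in mutants. Its highest control reached the lower mutant values, so the groups overlapped by 1 library, and its log2 fold change was 0.086 ± 0.037 (SE, adjusted p = 0.809 in limma). Mrps5, which lines the mRNA path and bears on decoding accuracy, had a log2 fold change of 0.051, and Mrps27, a pentatricopeptide-repeat protein of the small subunit, one of 0.057. Both overlapped between genotypes.

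In the other direction, Mrps7, which starts assembly of the head of the small subunit, was at 71.7, 69.3, 68.3 and 66.9 TPM in controls and 67.9, 62.8, 68.2 and 66.1 TPM in mutants. The groups overlapped, with a log2 fold change of -0.060 ± 0.038 (SE, adjusted p = 0.875 in limma). Mrps10 was at 44.0, 45.6, 44.4 and 41.6 TPM in controls and 47.9, 33.8, 36.5 and 46.3 TPM in mutants. The mutants split around the controls, with libraries 2 and 3 below every control and libraries 1 and 4 above, and the log2 fold change was -0.11 ± 0.10 (SE, adjusted p = 0.929 in limma). It was -0.019 without mutant library 2 and -0.18 without mutant library 1. Mrps24 (-0.060, from -0.11 to -0.016 with a library left out) and Mrps18b (-0.040, from -0.055 to -0.0097) completed the lower end.

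Among large-subunit genes, 29 lay above 0 and 20 below, with a median log2 fold change of 0.0094. This median was not settled in sign: it lay below 0 without control library 2, without mutant library 1 and without mutant library 4 (-0.0075), and was 0.029 without control library 1. Mrpl3, which reaches towards the site where peptide bonds form, was at 72.4, 74.6, 71.1 and 73.7 TPM in controls and 80.5, 76.4, 73.2 and 80.5 TPM in mutants. Mutant library 3 lay among the controls and the other 3 mutants lay above them, and the log2 fold change was 0.088 ± 0.039 (SE, adjusted p = 0.819 in limma). Mrpl16, a neighbour of the same site, was at 60.1, 61.2, 56.2 and 59.0 TPM in controls and 65.7, 63.3, 59.6 and 61.4 TPM in mutants, with overlap and a log2 fold change of 0.078. Mrpl32, which is matured by the m-AAA protease before it joins the ribosome, had a log2 fold change of 0.072, and Mrpl57 one of 0.088.

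Mrpl2, which helps to shape the peptidyl transferase centre, was at 75.3, 78.8, 73.2 and 71.8 TPM in controls and 72.2, 69.4, 69.8 and 70.3 TPM in mutants. The groups overlapped by a single pair, control 4 and mutant 1, and the log2 fold change was -0.085 ± 0.037 (SE, adjusted p = 0.809 in limma). Mrpl17, a protein of the exit tunnel region and the least abundant MRP gene, was at 9.57, 9.22, 9.59 and 9.13 TPM in controls and 8.82, 8.32, 8.86 and 8.50 TPM in mutants. It was the only MRP gene whose groups did not overlap, with a log2 fold change of -0.11 ± 0.054 (SE, adjusted p = 0.841 in limma).

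The most negative fold change of the MRP genes, that of Mrpl24, owed much of its size to control library 1, with mutant library 1 also apart. Mrpl24, also near the exit tunnel, was at 75.7, 51.8, 54.1 and 53.0 TPM in controls and 44.0, 50.8, 52.8 and 51.4 TPM in mutants. Apart from control 1 and mutant 1, the libraries lay between 50.8 and 54.1 TPM. The log2 fold change was -0.22 ± 0.12 (SE, adjusted p = 0.843 in limma), and it was -0.092 without control library 1. Mrpl52 was at 118 to 143 TPM in controls and 120 to 129 TPM in mutants, with a log2 fold change of -0.075 (-0.12 to -0.031 with a library left out). Mrpl39 (0.12) and Mrpl33 (-0.069), named after their values were seen, also had wide intervals. Mutant library 4 of Mrpl39 was at 89.2 TPM, and its other 7 libraries lay between 64.3 and 71.9 TPM. Mrpl33 was spread in both genotypes, from 92.8 to 129 TPM in controls and from 89.8 to 114 TPM in mutants.

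**Figure D3:**
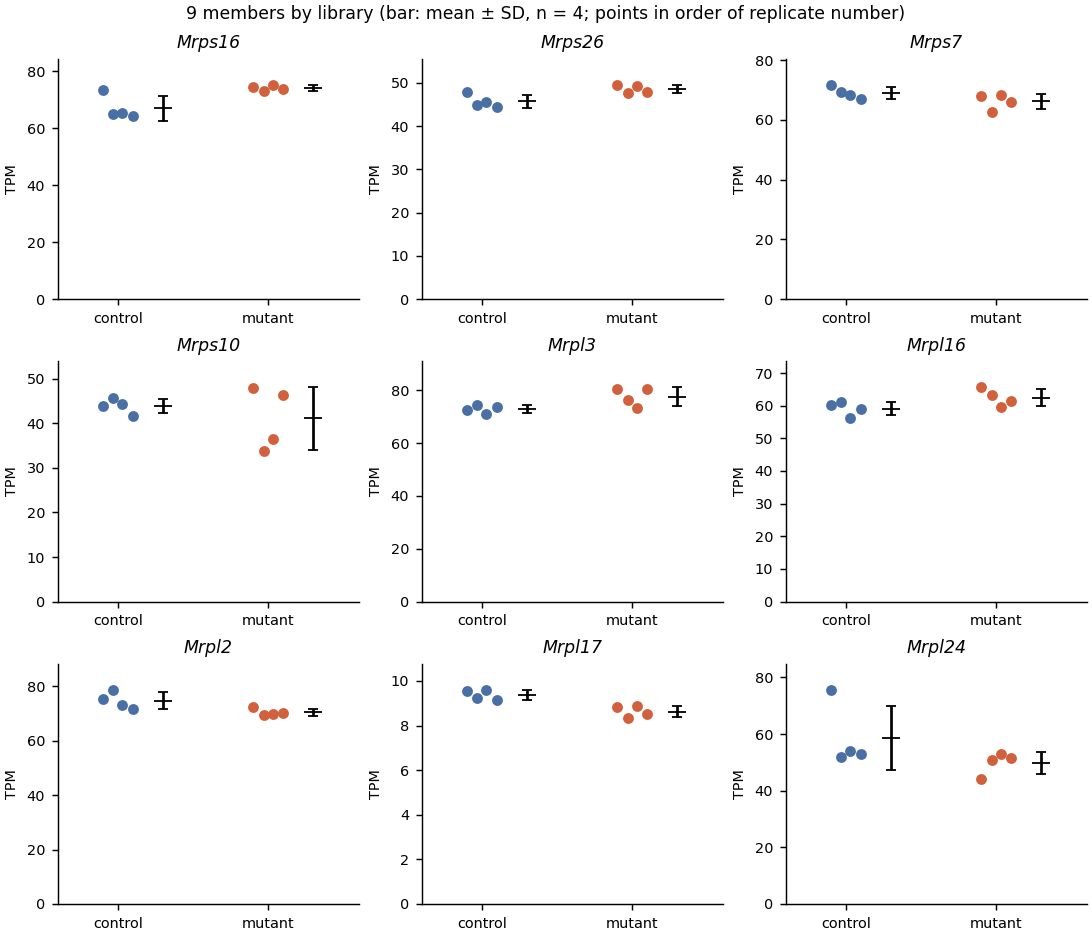
TPM by library of 9 MRP genes, the 2 with the smallest unadjusted p per subunit and direction and Mrpl24, with control libraries in blue, mutant libraries in orange and bars for mean ± SD (n = 4). Control library 1 of Mrps16 sits at 73.4 TPM among the mutants, and control library 1 of Mrpl24 sits at 75.7 TPM above all other libraries.

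Mrps30, Mrps18a and Mrps36 carry a small-subunit name but sit elsewhere in the known structure. Mrps30 and Mrps18a belong to the large subunit, and Mrps36 to the 2-oxoglutarate dehydrogenase complex of the citric acid cycle. Mrps18b and Mrps18c, which share the number of Mrps18a, belong to the small subunit. Mrps30 was at 41.6 to 47.7 TPM in controls and 40.5 to 49.8 TPM in mutants (log2 fold change 0.040). Mrps18a was at 62.8 to 71.6 and 64.5 to 68.7 TPM (-0.0033), Mrps18c at 62.3 to 70.3 and 60.0 to 73.3 TPM (-0.013), and Mrps36 at 74.8 to 88.4 and 81.1 to 87.5 TPM (0.053). None moved beyond the spread of its libraries, and placing these genes by structure left the difference between subunits at 0.013 instead of 0.015, as described next.

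The balance between subunits was similar in all 8 libraries. The mean log2(TPM + 1) of the Mrps genes minus that of the Mrpl genes was -0.012, 0.017, 0.0012 and -0.027 in controls and 0.015, -0.0025, 0.026 and 0.00089 in mutants. Control values averaged -0.0052 ± 0.019 and mutant values 0.0098 ± 0.013 (SD, n = 4 each). The difference of 0.015 lies between the SDs of the genotypes, and the groups overlap. Summed TPM gave a small-to-large ratio of 0.505 ± 0.0068 in controls and 0.510 ± 0.0042 in mutants (SD, n = 4 each), also with overlap (0.498 to 0.512 against 0.505 to 0.515).

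The level of the whole module was likewise close between genotypes. The 78 genes summed to 5274, 4982, 5044 and 5002 TPM in controls and 5205, 4985, 5025 and 5263 TPM in mutants. This averaged 5076 ± 134 against 5120 ± 135 TPM (SD, n = 4 each), or 0.541% against 0.546% of all listed TPM. Each genotype held high and low libraries, and their ranges almost coincided.

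The libraries differed more from each other than the genotypes did. Control library 1 and mutant libraries 1 and 4 had mean log2(TPM + 1) values over the MRP genes of 5.86, 5.83 and 5.85, and the other 5 libraries lay between 5.78 and 5.79. Both subunits were highest in these 3 libraries. In control library 1, 61 of the 78 genes were above their own mean over the 8 libraries, in mutant library 1 50 and in mutant library 4 58, against 22 to 28 genes in each of the others. As shares of the 78 genes these were 78.2%, 64.1% and 74.4%, against 60.3%, 63.8% and 41.9% over all 15545 genes. In the MRP range of TPM the shares were 61.9%, 70.2% and 40.4%. Mutant library 1 thus had a similar share of high genes in the MRP genes and over all genes. In mutant library 4 MRP genes were mostly high while most genes were low.

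**Figure D4:**
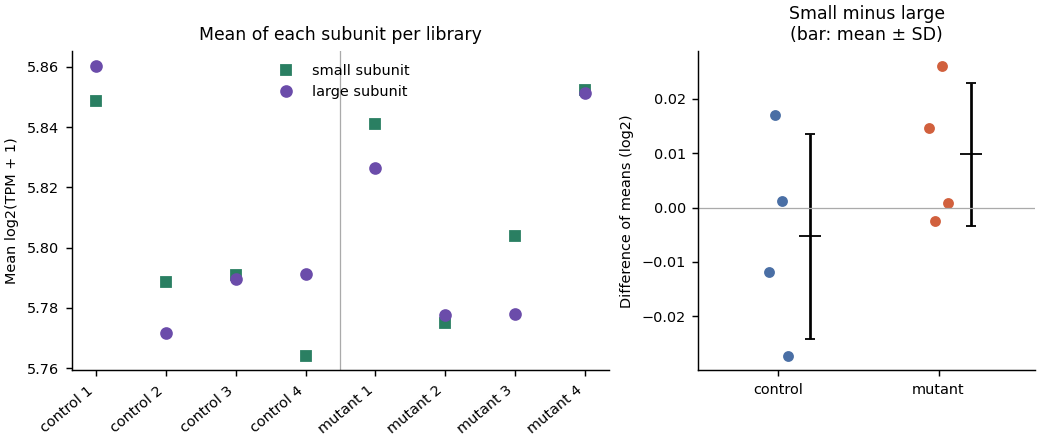
Left, mean log2(TPM + 1) of the Mrps genes (green squares) and the Mrpl genes (purple circles) in each library. Right, the difference of these means (small minus large) by genotype, with mean ± SD (n = 4). Control 1, mutant 1 and mutant 4 are the highest for both subunits, and the differences on the right overlap between genotypes around 0.

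These 3 libraries also had the lowest shares of mitochondrially encoded mRNA. The 13 mitochondrial mRNAs took 11.70%, 11.78% and 12.28% of listed TPM in control 1, mutant 1 and mutant 4, and 12.34% to 13.66% in the other 5. Because TPM is a share of a fixed total, values were also rescaled without mitochondrially encoded and haemoglobin genes. Control 1 (6.14) and mutant 4 (6.17) then still had the highest MRP means, while mutant 1 (6.11) lay inside the range of the rest (6.09 to 6.11). The range over libraries was 0.080 as deposited and 0.072 rescaled. The part of tissue composition or library preparation in this pattern was not tested.

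The proteins of the mitoribosome that carry other names gave 0 calls of 5 in limma, 0 at an unadjusted p below 0.05, and log2 fold changes from -0.035 to 0.057. Ptcd3, a pentatricopeptide-repeat protein of the small subunit, was at 80.7 to 84.6 TPM in controls and 82.2 to 88.3 TPM in mutants (0.057). Chchd1 was at 119 to 134 and 118 to 131 TPM (-0.035). For both genes the libraries of the genotypes overlapped.

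The genes that build the mitoribosome and drive its cycle gave no call in limma either. Of 25 assembly factors, 0 were called, and the median log2 fold change was -0.0099. At an unadjusted p below 0.05 lay 1 of them (4.0%), where 6.10% of all genes lay below it. That gene was Mrm2, a methyltransferase of the large mitochondrial rRNA, at 9.79, 9.79, 10.7 and 9.43 TPM in controls and 11.5, 12.0, 10.8 and 11.4 TPM in mutants. It was the 1 gene of the 25 (4.0%) whose groups did not overlap, against 3.68% of all genes. Its log2 fold change was 0.18 ± 0.060 (SE, adjusted p = 0.780 in limma). Mrm1, which modifies the same rRNA, had a log2 fold change of -0.17 with overlapping groups. Of 18 translation factors, 0 were called and 0 lay at an unadjusted p below 0.05, with a median of 0.017. They ran from Mtif2, the initiation factor, at -0.14 to Mtrf1l, a release factor named after its values were seen, at 0.17. Taco1, an activator of COX1 translation, was at 26.6 to 29.6 TPM in controls and 29.3 to 31.8 TPM in mutants (0.097).

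Among 10 genes for copying and transcribing mitochondrial DNA, 0 were called in limma and 3 lay at an unadjusted p below 0.05 (30% of the list), all of them higher in mutants, where 6.10% of all genes lay below it and 2.65% were higher. The groups did not overlap in 2 of the 10 genes (20%), both higher, against 3.68% of all genes and 1.63% higher. Ssbp1, the single-stranded DNA binding protein of the mitochondrial replisome, was at 29.9, 28.4, 29.5 and 29.9 TPM in controls and 34.0, 32.4, 31.4 and 33.9 TPM in mutants. All mutants lay above all controls, with a log2 fold change of 0.16 ± 0.042 (SE, adjusted p = 0.720 in limma). Tfam, which packages mitochondrial DNA and starts its transcription, was at 24.6 to 25.3 TPM in controls and 26.3 to 27.8 TPM in mutants, without overlap (0.12, adjusted p = 0.780 in limma). Mterf2 had a log2 fold change of 0.36 with the same adjusted p, and its genotypes overlapped at mutant library 4 (7.17 TPM). Tfam and Mterf2 were named after their values were seen. Polrmt, the mitochondrial RNA polymerase, had a log2 fold change of -0.080.

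The RNAs that meet the MRP proteins in the mitochondrion showed no call in limma, with 0 of the 2 rRNAs and 0 of the 13 mRNAs at an unadjusted p below 0.05. The large rRNA mt-Rnr2 was at 958 to 1037 TPM in controls and 953 to 1108 TPM in mutants (log2 fold change 0.044). The labels name a kit for poly(A) RNA or rRNA depletion, and either can remove rRNA. The rRNA values are therefore what remained in the libraries and need not follow the level in the tissue. All 13 mRNAs had a fold change below 0, with a median of -0.048 that ran from -0.082 to -0.0054 over the alternatives. They are cut from shared precursor transcripts and share the library, so their common sign is not 13 separate observations. ND4L, with the smallest p among them, was at 3400, 3683, 4377 and 3798 TPM in controls and 3464, 3359, 3595 and 3272 TPM in mutants, with overlap (-0.15, adjusted p = 0.840 in limma).

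**Figure D5:**
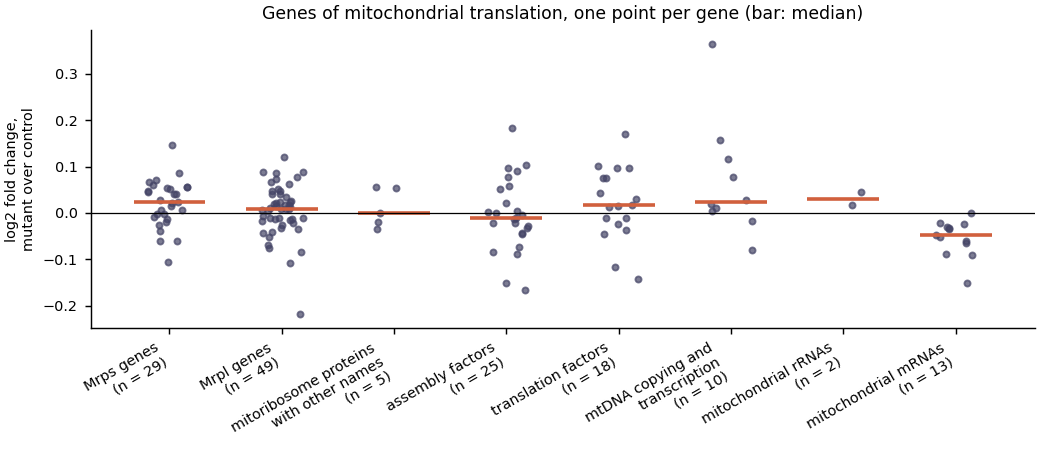
Log2 fold change (mutant over control) of each gene as a point, by list: the Mrps and Mrpl genes and 6 other lists of mitochondrial translation, with the median of each list as an orange bar. In the fit of all 8 libraries, list medians lie between -0.048 (mitochondrial mRNAs) and 0.031 (mitochondrial rRNAs), and the highest point is Mterf2 at 0.36.

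MRP genes often shared a start region with another gene. Of the 78, 24 (30.8%) had the start of a gene on the opposite strand within 1000 bases, pointing away from them, against 14.4% of all genes tested and 16.5% of those in the MRP range of TPM. Starts were 7 to 891 bases apart in these 23 pairs. The neighbours include Ndufs6 beside Mrpl36 and Ndufb5 beside Mrpl47, both respiratory complex I genes, Sars2 (mitochondrial seryl-tRNA synthetase) beside Mrps12, Psma2 (proteasome) beside Mrpl32 and Fau (cytosolic ribosome) beside Mrpl49. These neighbours, named after their values were seen, ran from 21.8 TPM (Sars2) to 767 TPM (Fau).

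None of the neighbours passed the threshold either. Of 20 tested neighbours that are not MRP genes, 0 were called in limma. At an unadjusted p below 0.05 lay 1 of the 20, where 6.10% of all genes lay below it. This was Pnpla7, beside Mrpl41, with a log2 fold change of -0.17. The other end of the range of the neighbours was 0.057 (Ncapd2, beside Mrpl51). Mrps11 and Mrpl46 form the pair with a member in each subunit, with starts 41 bases apart, and their promoter windows share 141 bases, which do not include the YY1 letters of the Mrps11 window. Mrps11 was at 32.2, 30.4, 29.1 and 27.6 TPM in controls and 33.5, 29.1, 30.8 and 28.4 TPM in mutants. Mrpl46 was at 45.7, 42.5, 40.5 and 38.7 TPM in controls and 43.0, 39.7, 35.0 and 43.9 TPM in mutants. Both were highest in control library 1 among the controls and lowest in control library 4, and their genotypes overlapped, with log2 fold changes of 0.027 and -0.051.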

How the data were processed

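RNA-seq of 8 ventricular heart libraries (4 control, 4 mutant) was read from 1 table of TPM deposited by the authors, with a column per library and a start and end for each feature. The submitters' processing notes name FastQC, Trim Galore 0.6.7, HISAT2 2.2.1, StringTie 2.2.1, featureCounts, DESeq2 and the builds GRCm38 and mm10, without saying which made the table. All 78 members had the start and end of their RefSeq gene on GRCm38.p6. TPM keeps no read depth, so the depth is unknown and no counting interval is given. Between 15380 and 15584 genes reached 1 TPM in each library.

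The labels disagree: TRIzol and a stranded kit for poly(A) RNA stand in the design text, whereas cortical neurons, a column kit and rRNA depletion stand in the sample protocol, and the genotype field of the mutants reads wild type. Groups were taken from the titles. The design text calls the libraries biological replicates.

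Values were analysed as log2(TPM + 1), which understates the change of low genes. Genes reaching 1 TPM in 4 or more libraries were fitted in limma 3.58.1 (R 4.3.3) with a variance trend and without covariates. Tests were two-sided, with Benjamini-Hochberg adjustment and a threshold of 0.05. Subunit means and sums were described per library with no test. The fit was tested on simulated data, in which changes as small as those of the members were rarely or never called, so the absence of calls does not exclude small changes. Alternatives were another pseudocount, other filters, 3 other scalings, no variance trend, a replicate block and leaving out each library. Tables and plots used Python 3.11.15, pandas 2.3.3, numpy 2.4.6 and matplotlib 3.10.9.

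The members, lists and tests were chosen with earlier results of these data known. Named by rule were, in each subunit, the 4 genes per direction with the smallest unadjusted p. In each subunit the 3 with the highest and the 2 with the lowest mean TPM were also named. The rule further held the genes whose name and place differ, with Mrps18b and Mrps18c. It also held, in each other list, the gene per direction with the smallest unadjusted p, and Atf4. All further genes were chosen with their values in view. Mitochondrially encoded genes were matched by the symbols the table uses, added after it was read, and Mrpl58 (older symbol Ict1) was counted as a member of the large subunit.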

Additional observations from a re-analysis of the deposited data

Results flagged for a closer look

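In control library 1 the mean log2(TPM + 1) over the 78 MRP genes was 5.86, while the other 3 controls lay between 5.78 and 5.79, so this library stood apart from its group by Dixon's test at 95%. Mrps16 was at 73.4 TPM in the same library, and the other controls ran from 64.3 to 65.2 TPM. Mrpl24 was at 75.7 TPM there, against 51.8 to 54.1 TPM. Chance marks about 1 group in 20: 64 groups were tested, 3 stood apart, and 3.2 would by chance. Over all MRP genes, 6 of 156 groups (3.85%) held such a library.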

How the results depend on the processing

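No MRP gene and no gene of the other 6 lists of mitochondrial translation passed the threshold in any of the 16 alternative fits; the mitochondrial rRNAs and mRNAs have no value in the fit rescaled without them. The number of all genes past the threshold, 6, was 0 with no filter, with no variance trend and with the replicate block, and 0 to 3 with a library left out. MRP genes at an unadjusted p below 0.05, 3 in the report, numbered 5 with median-of-ratios scaling, 5 with no filter, 1 with the replicate block, and 2 to 3 with a library left out. MRP genes whose groups did not overlap, 1 in the report, numbered 3 with median-of-ratios scaling, 3 with quantile normalization, 5 when rescaled without mitochondrially encoded and haemoglobin genes, and 2 to 8 with a library left out, where fewer libraries overlap less by construction. The 8 came without control library 1, where 57 MRP genes lay above 0. For these counts of MRP genes the share over all genes in the same fit is not given, so they have no background beside them. With a library left out, list medians ran from -0.0040 to 0.074 for the rRNAs, -0.017 to 0.043 for translation factors, -0.032 to 0.00016 for assembly factors, -0.023 to 0.026 for proteins with other names and 0.012 to 0.092 for genes of mitochondrial DNA expression. The difference between subunits kept its sign, from 0.0077 to 0.022. The difference in the large-subunit mean alone, 0.0050, was -0.00078 after quantile normalization and -0.00012 when rescaled. Fold changes near 0 changed sign: Mrps18a was 0.0039 with median-of-ratios scaling. With a library left out the ranges were -0.036 to 0.026 for Mrps18a, -0.062 to 0.033 for Mrps18c, -0.0071 to 0.090 for Mrps30, -0.041 to 0.018 for Mrps14, -0.040 to 0.030 for Mrps21, -0.042 to 0.0044 for Mrps25, -0.022 to 0.057 for Mrpl54, -0.022 to 0.051 for Mrpl12 and -0.024 to 0.051 for Mrpl48. The call of Atf4 was lost in 12 of 16 alternatives, with its direction kept. The cause was not tested. Same-numbered libraries did not deviate together (correlations over genes from -0.082 to 0.035), and differently numbered ones ran from -0.054 to 0.057. This gave no sign that the numbers pair the libraries, but a pairing with a small effect on most genes would not be seen this way. The read depth is unknown, which leaves the counting error of the lowest genes, such as Mrpl17, without a value.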
